A study of Mus musculus with 20 samples.

Results

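The Serpina3 genes are a run of close paralogs on mouse chromosome 12, and this account follows 7 of them, Serpina3c, Serpina3f, Serpina3g, Serpina3h, Serpina3i, Serpina3m and Serpina3n, among 39017 genes counted in sorted astrocytes and microglia after brain injury. The 7 were taken by symbol from the authors' table of reads per gene. Adult male C57BL/6J mice received either lateral fluid percussion injury (FPI), in which a pendulum drives a pulse of fluid onto the dura exposed by a left parietal craniectomy, or sham injury, in which the craniectomized animal was attached to the device without a pulse. On day 7 the ipsilateral (left) forebrain was dissociated and cells were sorted as microglia (CD11b+ with intermediate CD45) or astrocytes (ACSA-2+), each library coming from 1 mouse. By the animal numbers in the library names, however, FPI astrocyte replicates 2 and 5 came from the same mouse, which would make 4 mice behind the 5 FPI astrocyte libraries. There were 5 sham and 5 FPI libraries for each cell type, 20 in all, named below by group and replicate number. No transgene, Cre line or test drug was used in these groups. All mice were anesthetized with ketamine/xylazine for craniectomy and before perfusion, and with isoflurane at injury or sham.

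Serpins are protease inhibitors that trap their target by presenting a reactive loop as bait and then changing shape irreversibly around the enzyme. Humans have a single SERPINA3 gene, encoding alpha-1-antichymotrypsin, an acute-phase protein of plasma, whereas in mice the locus has expanded into a family of genes with different reactive loops. Serpina3n encodes a secreted inhibitor of neutrophil serine proteases and granzyme B, and it is widely used as a marker of reactive astrocytes. Serpina3g, also known as Spi2A, encodes an inhibitor that acts inside cells on cathepsins. Transcription of acute-phase genes is classically driven by cytokines that signal through gp130 and the factor STAT3.

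A short stretch of the coding sequence shows how alike the paralogs are and where a sequencing read can tell them apart. The gene models span chr12:104146382-104414329 (GRCm38.p6, GENCODE M21), with Serpina3c on the minus strand at chr12:104146382-104153870 and the other 6 members on the plus strand, ending with Serpina3n at chr12:104406729-104414329. Serpina3h is annotated as a transcribed unprocessed pseudogene and the other 6 as protein-coding genes. The lines below give coding bases 658 to 717 of Serpina3n, in exon 3 of 5 at chr12:104411147-104411206, with the aligned bases of the other members; this is the 60-base gap-free coding window in which they resembled Serpina3n least, and capitals mark each base that differs from Serpina3n.
Serpina3n: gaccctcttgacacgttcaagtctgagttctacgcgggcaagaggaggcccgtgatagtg
Serpina3c: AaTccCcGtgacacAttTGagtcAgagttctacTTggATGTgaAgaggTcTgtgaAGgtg
Serpina3f: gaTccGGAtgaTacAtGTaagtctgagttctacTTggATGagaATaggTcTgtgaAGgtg
Serpina3g: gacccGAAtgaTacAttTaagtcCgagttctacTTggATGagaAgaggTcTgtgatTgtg
Serpina3h: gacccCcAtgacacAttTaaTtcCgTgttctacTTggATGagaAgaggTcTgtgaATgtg
Serpina3i: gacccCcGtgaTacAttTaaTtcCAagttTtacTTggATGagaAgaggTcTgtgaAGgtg
Serpina3m: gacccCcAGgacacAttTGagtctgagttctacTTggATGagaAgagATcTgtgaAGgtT
In this window the 6 other members matched Serpina3n at 68.3% to 73.3% of bases. Over the aligned bases of the messenger RNAs, with gaps left out, identity to Serpina3n ran from 79.4% for Serpina3f to 84.2% for Serpina3h. By this measure the most alike pair was Serpina3h and Serpina3i at 90.9%, with 1236 aligned bases in 1429 alignment columns. The order of pairs depends on leaving gaps out. Identity is not the same as ambiguity, since a read fits several genes equally well where a stretch of its own length recurs unchanged elsewhere. The paper states that mismatches at read ends could be clipped in alignment, so shorter shared stretches can matter too. Reads were sequenced from both ends over 150 bases, and 0% of the 1915 stretches of 150 bases in the Serpina3n transcript occurred unchanged in a GENCODE transcript of another gene. The share was 0.204% for stretches of 100 bases, 1.46% for 75 bases and 6.90% for 50 bases, the last matching 7 other genes. Among the other members only Serpina3m had any shared stretch of 150 bases, 0.331% of them with Serpina3k, whose gene lies inside the annotated span of Serpina3m and shares 60 exon bases with it. How reads that fit several genes were counted is not given in the sources used here.

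**Figure D1:**
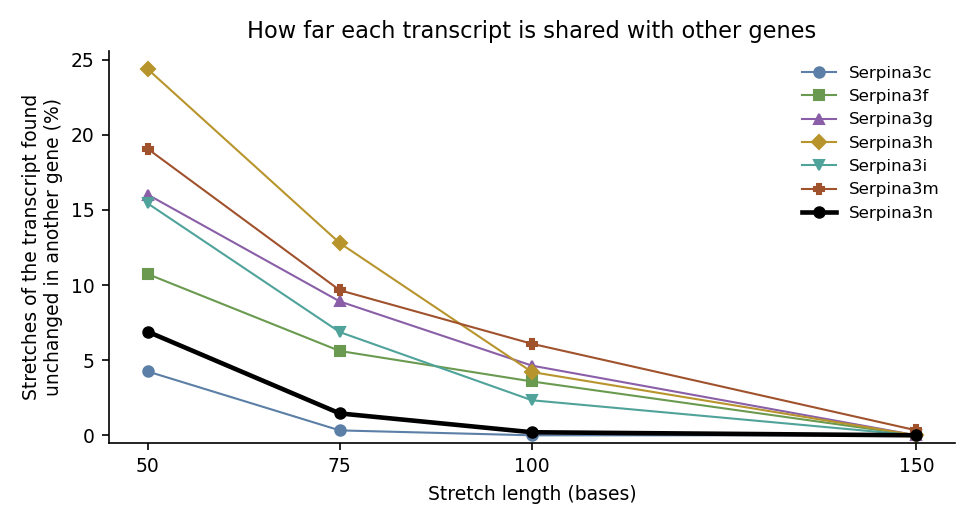
Percent of all stretches of a given length (x axis, bases) in the transcript of each member that occur unchanged in a transcript of another gene (y axis). Serpina3n (thick black line) fell from 6.90% at 50 bases to 0% at 150 bases, while Serpina3h, the pseudogene, started highest at 24.4%.

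Serpina3n carried nearly all reads of the cluster. Of 5504 reads assigned to the 7 members over the 20 libraries, 5484 (99.6%) were assigned to Serpina3n, 11 to Serpina3f, 7 to Serpina3m and 2 to Serpina3g. No read was assigned to Serpina3c, Serpina3h or Serpina3i in any library, so 4 of the 7 members were detected. Libraries held 5623349 to 13110857 reads on genes, and at this depth a gene with 0 reads in a library may still be transcribed at a low level. In the 5 FPI astrocyte libraries Serpina3n took 4376 of 4376 reads (100%, exact 95% binomial interval from 99.9%), and each of the other 6 members was limited to at most 0.0843%. In the sham astrocyte libraries it took 994 of 994 reads, and each other member was limited to at most 0.37%. These intervals cover counting error only, as the libraries carried no molecular identifiers. Per kb of exon, Serpina3n in FPI astrocytes was at least 1063-fold above Serpina3h and at least 1698-fold above Serpina3f, taking 3 reads over the group as the floor for an undetected gene.

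Microglia held few reads of the cluster, and there the minor members appeared. In FPI microglia Serpina3n took 107 of 118 reads (90.7%, exact 95% interval 83.9% to 95.3%) and Serpina3f the other 11, 8 of them in replicate 2 and 3 in replicate 4. In sham microglia the cluster had 16 reads in all, 7 of Serpina3n, 7 of Serpina3m and 2 of Serpina3g. The 7 Serpina3m reads all came from sham replicate 3 and the 2 Serpina3g reads from sham replicate 2. Per kb of exon the share of Serpina3n was 91.5% in FPI microglia, close to its share of reads. None of the minor members had a read in any of the 10 astrocyte libraries. The table held 7 further Serpina3 symbols, of which Serpina3b had 6 reads, all in FPI microglia replicate 4, and Serpina3a had 2, both in sham astrocyte replicate 2, while Serpina3j, Serpina3k and 3 pseudogenes had 0.

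**Figure D2:**
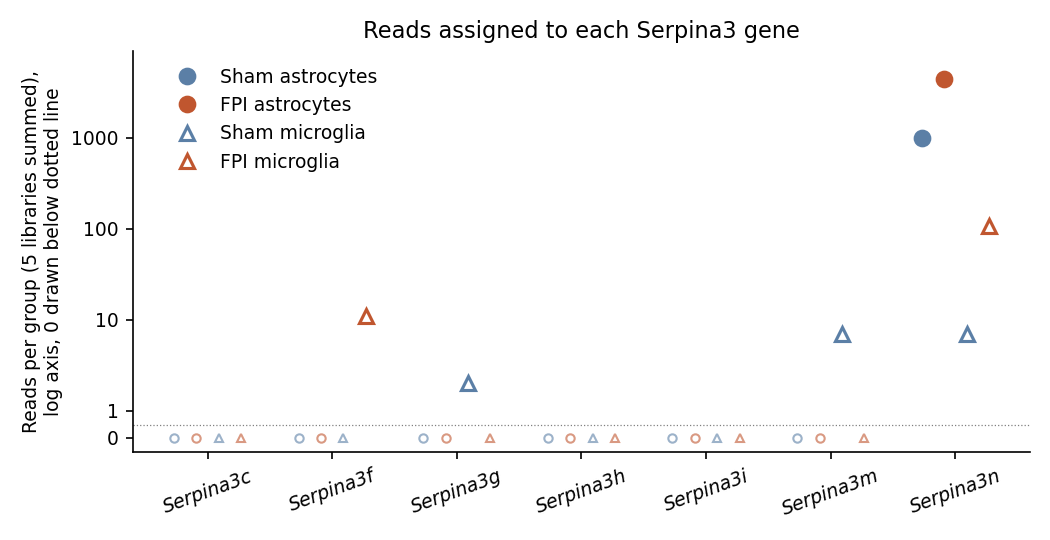
Reads assigned to each member, summed over the 5 libraries of a group, on a log axis (0 drawn below the dotted line); circles are astrocytes, triangles microglia, blue sham and orange FPI. Serpina3n stood at 994 and 4376 reads in sham and FPI astrocytes, and no other member passed 11 reads in any group.

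Serpina3n was higher in astrocytes of FPI mice than of sham mice in every library. Levels are given in CPM, reads of the gene scaled to a library of 1000000 reads on genes, with library totals adjusted by TMM factors from all 20 libraries. Sham astrocyte replicates 1 to 5 had 19.6, 9.39, 11.99, 33.4 and 37.5 CPM of Serpina3n, a mean of 22.4 ± 12.6 (SD, n = 5). FPI astrocyte replicates 1 to 5 had 81.2, 118, 70.7, 96.3 and 200 CPM, a mean of 113 ± 51.5 (SD, n = 5). The groups did not overlap, and the lowest FPI library was 1.89 times the highest sham library. The ratio of means was 5.06, and the difference of 90.8 CPM had p = 0.00794 in an exact two-sided permutation test, the smallest value that 5 against 5 libraries allow (0.0159 after Benjamini-Hochberg adjustment over 4 such tests). With FPI replicates 2 and 5 averaged as 1 mouse the ratio of means was 4.55, and the exact p was again 0.00794, the smallest that 4 against 5 allow. Among the 13741 genes tested in astrocytes, 62 (0.451%) separated the groups in this way.

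The fit across all genes gave Serpina3n in astrocytes a log2 fold change of 2.37 (95% interval 1.46 to 3.27, SE 0.42). Its adjusted p of 0.161 in edgeR's quasi-likelihood test missed the threshold of 0.1. That fit called 1 gene of 13741 (0.00728%) at an adjusted p below 0.1 and an absolute log2 fold change above 0.6, with 319 genes at an unadjusted p below 0.05. Serpina3n was the only member with enough reads to be tested, so 0 of 1 tested members were called. The call depended on the fit. DESeq2 gave 2.37 with an adjusted p of 2.44e-05 and called Serpina3n among 39 genes (0.214% of those with an adjusted p), and edgeR with every gene that had at least 1 count gave an adjusted p of 0.0568, with 0.0397% of genes called. With the same filter as the main fit, a term for replicates 4 and 5 gave 2.48 (edgeR adjusted p = 0.00916), and a block on replicate number called the gene too. With FPI replicates 2 and 5 summed as 1 mouse the log2 fold change was 2.17 and the edgeR adjusted p was 0.379. Whether more astrocytes carried Serpina3n RNA after FPI, or each cell carried more, cannot be told apart in sorted bulk libraries.

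Markers of some other cell types also had positive fold changes in the astrocyte libraries after FPI. All 7 tested of 10 microglia markers had a positive log2 fold change (median 2.96, 4 at an unadjusted p below 0.05). edgeR called 0 of them, and DESeq2 called 4 of the 10, against 0.214% of all genes with an adjusted p. Their summed level was 104 to 180 CPM in sham and 128 to 257 CPM in FPI astrocytes, with 1 to 4 of the 10 at 0 in a sham library and at most 1 in an FPI library. The highest Serpina3n level of any microglia library was 9.22 CPM, below the 9.39 CPM of the lowest astrocyte library. Of 8 oligodendrocyte precursor markers 6 were tested and 5 had a positive log2 fold change (median 0.93, 3 at an unadjusted p below 0.05), with sums of 251.9 to 812 CPM in sham and 346 to 1377 CPM in FPI and 1 or 2 markers at 0 in each library. All 8 pericyte and fibroblast markers had a positive value (median 0.53, 3 at an unadjusted p below 0.05), with sums of 813 to 3933 CPM in sham and 317 to 5404 CPM in FPI and none at 0. Neither edgeR nor DESeq2 called any marker of the precursor or the pericyte and fibroblast list. Of 8 oligodendrocyte markers 6 had a positive value (median 0.045, 0 at an unadjusted p below 0.05), and neither method called any. Their sums were larger, 1697 to 18022 CPM in sham and 3251 to 11360 CPM in FPI. In sham replicate 4 the sum of 18022 CPM exceeded that of the astrocyte markers, 9905 CPM. The part of microglial, oligodendrocyte, precursor, pericyte or fibroblast RNA in the Serpina3n difference was not tested.

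**Figure D3:**
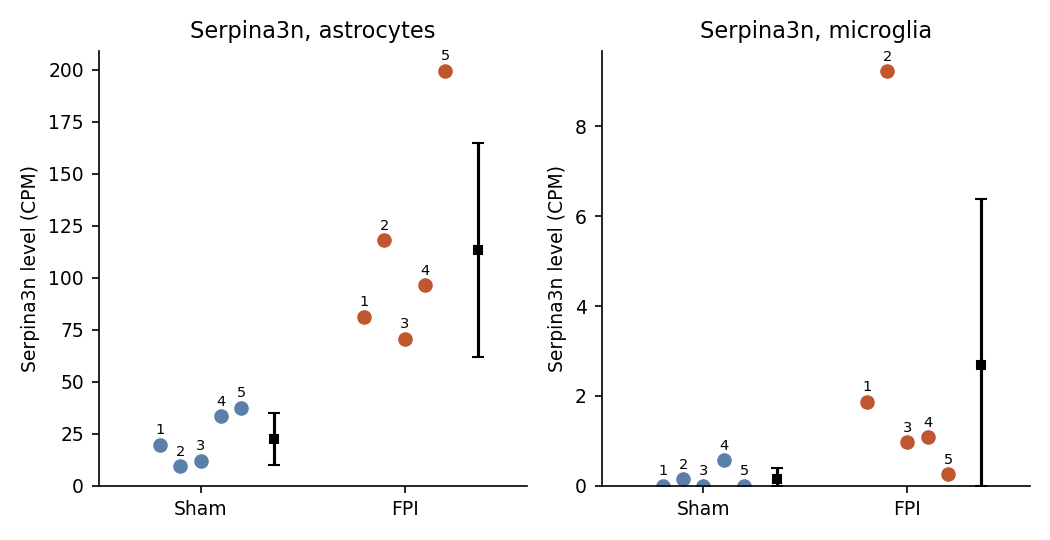
Serpina3n level in CPM in each library (points, numbered by replicate) with the group mean and SD (black square and bar, cut at 0), in astrocytes (left) and microglia (right) on separate linear axes. FPI astrocytes ran from 70.7 to 200 CPM and sham astrocytes from 9.39 to 37.5 CPM, whereas 4 of 5 FPI microglia libraries lay below 2 CPM and replicate 2 reached 9.22 CPM.

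Sham astrocytes split by replicate number, and FPI astrocytes had 1 high library. Sham replicates 4 and 5 had 33.4 and 37.5 CPM of Serpina3n, against 9.39 to 19.6 CPM in replicates 1 to 3. The same 2 sham libraries had the lowest summed level of 10 astrocyte markers, 9905 and 15559 CPM against 24289 to 30469 CPM in replicates 1 to 3. They also had the highest sums of oligodendrocyte precursor markers (812 and 794 CPM against 251.9 to 354 CPM) and of pericyte and fibroblast markers (2100 and 3933 CPM against 813 to 2050 CPM) of the sham astrocyte libraries. Their sums of oligodendrocyte markers were the highest as well (18022 and 8069 CPM against 1697 to 7889 CPM). The log2 ratio of FPI to sham mean CPM was 2.72 within replicates 1 to 3 and 2.06 within replicates 4 and 5, so Serpina3n was higher after FPI within each subset. FPI replicate 5, at 200 CPM, is the library whose name carries the suffix of microglia libraries and the animal number of FPI replicate 2. It also had the highest summed oligodendrocyte precursor markers (1377 CPM against 346 to 935 CPM) and pericyte and fibroblast markers (5404 CPM against 317 to 2916 CPM) of the FPI astrocyte libraries, and the part of these cells in its Serpina3n level was not tested. Its summed oligodendrocyte markers, 3251 CPM, were the lowest of the FPI astrocyte libraries, against 6266 to 11360 CPM. Its summed microglia markers, 222 CPM, lay within the 128 to 257 CPM of the other FPI astrocyte libraries. Without FPI replicate 5 the log2 fold change was 2.04 (edgeR adjusted p = 0.364). The ratio of means was then 4.09 (exact permutation p = 0.00794), with all 4 remaining FPI libraries above all sham libraries.

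In microglia Serpina3n was low, and its rise after FPI rested on few reads. The 5 sham microglia libraries had 0, 2, 0, 5 and 0 reads, and the 5 FPI libraries had 16, 74, 8, 7 and 2 reads. In CPM these were 0, 0.146, 0, 0.567 and 0 in sham (mean 0.143 ± 0.245, SD, n = 5) and 1.87, 9.22, 0.962, 1.08 and 0.256 in FPI (mean 2.68 ± 3.70, SD, n = 5). The groups overlapped, since FPI replicate 5 lay below sham replicate 4, and FPI replicate 2 alone held 74 of the 107 reads. The difference of 2.53 CPM had p = 0.0159 in the exact permutation test (0.0212 adjusted over the 4 tests), and without FPI replicate 2 it was 0.898 CPM (p = 0.0317). The gene did not pass edgeR's default filter on low counts, so none of the 7 members was among the 12143 genes tested in microglia, of which 285 (2.35%) were called.

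Fits that admitted low genes did return a value for Serpina3n in microglia. DESeq2 put its log2 fold change at 4.18 (adjusted p = 0.0115, SE 1.13, called together with 3.23% of genes with an adjusted p). edgeR gave 4.03 (SE 1.17, adjusted p = 0.0476) with every gene of at least 1 count, where 1.86% of genes were called. One edgeR fit of all 20 libraries gave 3.99 (SE 0.98, adjusted p = 0.0853), where 0.803% of genes were called in microglia. Serpina3f was at 0 reads in sham and 0.292 ± 0.442 CPM in FPI microglia (SD, n = 5), its reads lying in 2 of 5 FPI libraries. Its exact permutation p was 0.444, the smallest that reads in only 2 libraries allow, so the test could not decide.

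The order of Serpina3n levels was FPI astrocytes, sham astrocytes, FPI microglia and sham microglia. Sham astrocytes exceeded FPI microglia by 19.7 CPM with no overlap (exact permutation p = 0.00794, adjusted 0.0159), and their mean was 8.36 times higher. FPI astrocytes exceeded FPI microglia 42.3-fold in mean CPM. Without FPI microglia replicate 2 the mean of FPI microglia was 1.04 CPM, and the ratios were 21.5 for sham astrocytes and 109 for FPI astrocytes. Averaged over sham and FPI, the fit of all 20 libraries placed Serpina3n higher in astrocytes by 6.21 on the log2 scale (edgeR adjusted p = 1.43e-09, SE 0.55), in a contrast that called 9683 of 15077 genes (64.2%), 5604 of them (37.2%) higher in astrocytes. The median of all genes in that contrast was 0.13 and moved to 0.31 with DESeq2, which gave Serpina3n 6.40. Ranked per kb of exon, Serpina3n was gene 347 of 20538 with a count in FPI astrocytes and 3191 of 20958 in sham astrocytes. In FPI microglia it ranked 10677 of 18434 and in sham microglia 16335 of 18960.

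Whether FPI changed Serpina3n more in one cell type than in the other was not resolved. The difference of the log2 fold changes, astrocytes minus microglia, was -1.65 with a 95% interval of -4.10 to 0.79 (edgeR adjusted p = 0.877), in a contrast that called 30 of 15077 genes (0.199%). Without FPI microglia replicate 2 the difference was -0.31, and without sham microglia replicate 4, which held 5 of the 7 sham reads, it was -2.93. By the animal numbers in the library names, 3 mice gave a library of each cell type. In the FPI mouse of these 3 the level was 70.7 CPM in astrocytes and 1.87 CPM in microglia. In the 2 sham mice it was 33.4 and 37.5 CPM in astrocytes and 0.146 and 0 CPM in microglia.

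Astrocyte transcripts were present at a low level in the microglia libraries, and their summed level is given beside the Serpina3n reads there. All 10 astrocyte markers were detected in every astrocyte library and all 10 microglia markers in every microglia library. The summed level of the astrocyte markers was 9905 to 30953 CPM in astrocytes, 244 to 360 CPM in sham microglia and 287 to 604 CPM in FPI microglia, with at most 2 of the 10 at 0 in a microglia library. FPI microglia replicate 2, with the most Serpina3n, also had the highest sum, 604 CPM. Serpina3n amounted to 0.262% to 1.30% of the summed astrocyte markers in FPI astrocytes and 0.037% to 0.337% in sham astrocytes, so the groups overlapped on this scale. The same ratio was 0.0891% to 1.53% in FPI microglia and 0% to 0.157% in sham microglia. The part of astrocyte RNA in the microglial Serpina3n reads was not tested. Serpina3c, Serpina3h and Serpina3i had no reads in either cell type.

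**Figure D4:**
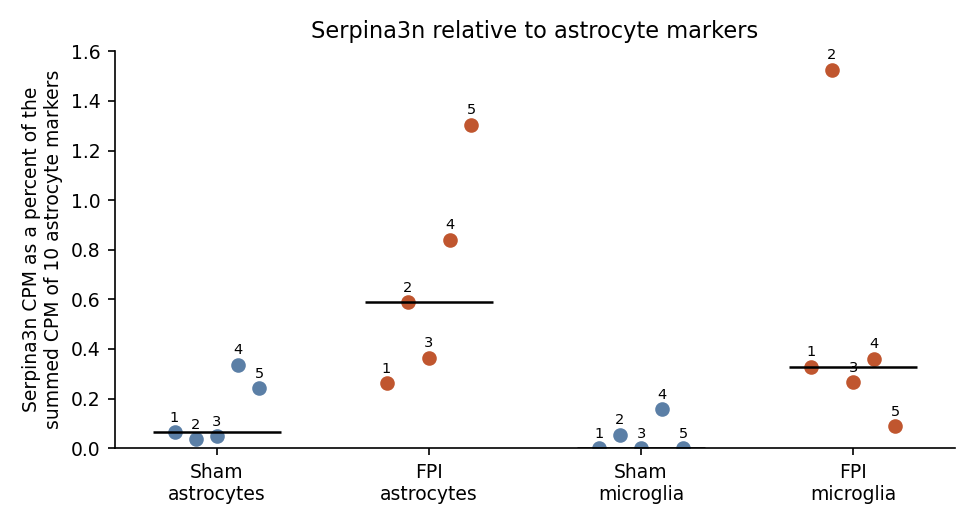
Serpina3n CPM as a percent of the summed CPM of 10 astrocyte markers in each library (points, numbered by replicate), with the group median as a line. FPI microglia replicate 2 (1.53%) and FPI astrocyte replicate 5 (1.30%) were the highest of the 20 libraries.

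The promoter of Serpina3n was compared with that of Serpina3c, the most alike of the other member promoters at hand, whose gene had no reads. RefSeq promoter sequences (GRCm38.p6, 250 bases before to 50 after the transcription start) were at hand for 5 of the 7 members. The promoters of Serpina3n and Serpina3c, at opposite ends of the run of members and on opposite strands, were 93.5% identical over 294 aligned bases, while Serpina3n and the promoters of Serpina3f, Serpina3g and Serpina3i were 69.5% to 72.8% identical. Both are printed from 5′ to 3′ of their own gene, Serpina3n at chr12:104406458-104406757 and Serpina3c at chr12:104153823-104154122. Capitals mark the 19 substituted bases and, in Serpina3c, 3 bases with no counterpart in Serpina3n.
Serpina3n: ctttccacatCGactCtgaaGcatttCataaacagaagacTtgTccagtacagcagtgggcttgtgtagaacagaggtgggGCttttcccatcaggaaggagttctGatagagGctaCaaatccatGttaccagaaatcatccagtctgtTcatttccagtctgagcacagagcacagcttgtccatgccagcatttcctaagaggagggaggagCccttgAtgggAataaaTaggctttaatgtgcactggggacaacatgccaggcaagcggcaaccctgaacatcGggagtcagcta
Serpina3c: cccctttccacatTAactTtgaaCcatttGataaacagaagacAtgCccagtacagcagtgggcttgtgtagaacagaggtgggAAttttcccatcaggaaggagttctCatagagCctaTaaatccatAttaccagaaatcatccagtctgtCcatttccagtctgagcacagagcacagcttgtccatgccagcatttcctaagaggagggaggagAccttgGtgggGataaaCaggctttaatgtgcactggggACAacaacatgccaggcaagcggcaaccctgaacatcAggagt
With these 2 windows so alike, Serpina3n had 5484 reads over the 20 libraries and Serpina3c had 0. The palindrome TTCNNNGAA, the core of STAT binding sites, reads the same on both strands and is held by 8.30% of 32851 mouse promoters of this length. It occurred in the promoters of Serpina3f (TTCCTAGAA, 121 to 113 bases before the first of its 2 annotated starts), Serpina3g (TTCCCAGAA, 33 to 25 bases before) and Serpina3i (TTCCCAGAA, 102 to 94 bases before), and not in the windows of Serpina3n or Serpina3c. These matches describe letters in a 300-base window and nothing about binding.

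The genes with the profile nearest to Serpina3n over the 10 astrocyte libraries were Gfap, Tnr, Oasl2, Icam1 and Cd68. Likeness was the root mean square difference of log2(CPM + 0.5) after centring each gene on its mean, over genes tested in astrocytes and leaving out Gm and Rik models. It was 0.54 for Gfap, 0.59 for Tnr, 0.63 for Oasl2, 0.64 for Icam1 and 0.64 for Cd68, against a median of 1.45 over all genes. Gfap, the intermediate filament of astrocytes, was at 147 to 407 CPM in sham and 516 to 1286 CPM in FPI astrocytes, without overlap. Tnr, which encodes the matrix protein tenascin R and is on the list of oligodendrocyte precursor markers, was at 3.48 to 10.3 CPM in sham and at 16.2 to 24.4 CPM in FPI replicates 1 to 4, but at 125 CPM in FPI replicate 5. Oasl2, an interferon-induced gene, was at 5.83 to 11.6 CPM in sham and 18.4 to 48.5 CPM in FPI astrocytes. Cd68, a lysosomal protein of phagocytes, was at 0 to 1.64 CPM in sham and 1.99 to 4.94 CPM in FPI. Icam1, an adhesion molecule, was at 0.313 to 2.56 CPM in sham and 1.87 to 11.8 CPM in FPI, with overlap. All 5 had their highest value in FPI replicate 5, as Serpina3n did, with Cd68 next highest in FPI replicate 2 (4.75 CPM) and Gfap in FPI replicate 3 (882 CPM). The 5 were selected for likeness to Serpina3n over these same libraries, so their shared rise and peak follow in part from the selection. In microglia Cd68 was at 284 to 451 CPM, and the part of microglial RNA in the Cd68 reads of astrocytes, or of precursor RNA in those of Tnr, was not tested. None of the 5 was called in astrocytes by edgeR, where their lowest adjusted p was 0.151. DESeq2, which gave 4 of the 5 an adjusted p, called Gfap (adjusted p = 9.2e-06) and Oasl2 (adjusted p = 0.000157), against 0.214% of all genes.

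**Figure D5:**
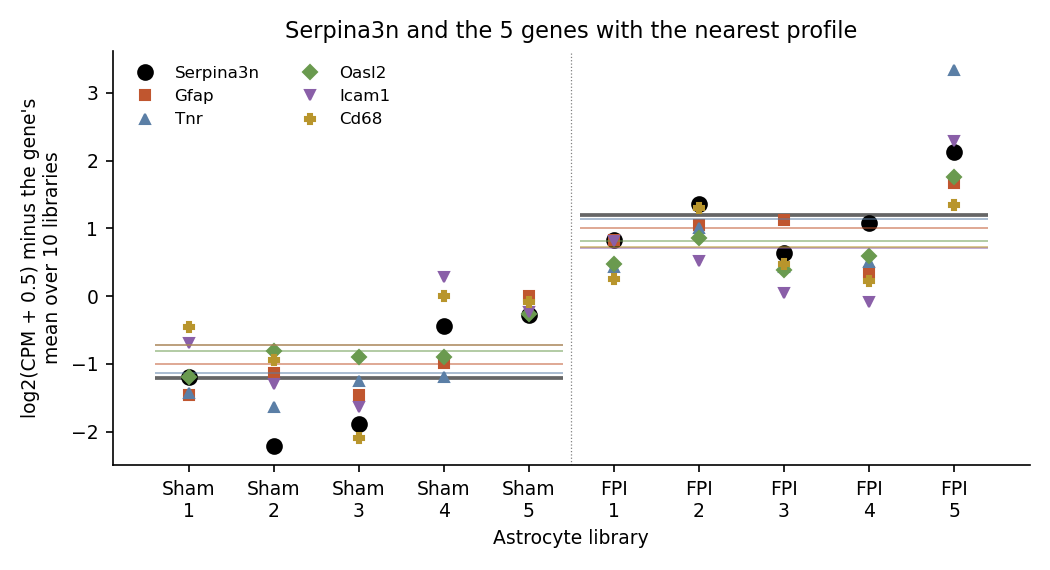
Log2(CPM + 0.5) of Serpina3n and its 5 nearest genes in the 10 astrocyte libraries, each gene centred on its own mean (y axis, log2 units); horizontal lines are group means. All 6 genes had a higher mean in FPI than in sham, and Tnr in FPI replicate 5 stood highest of all points. The 5 were selected for likeness to Serpina3n over these libraries, so the shared rise follows in part from the selection.

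Gene lists that surround the cluster by function were read from the same fits. Serpina3n is one of 13 pan-reactive astrocyte genes, which the paper describes as increased in models of both neuroinflammation and ischemic stroke. Of the 13, 11 were tested in astrocytes. All 11 had a positive log2 fold change with a median of 0.88, against -0.0052 over all genes tested. By edgeR none was called, although 6 passed an unadjusted p of 0.05 (2.32% of all genes in either direction, 1.57% higher). DESeq2 called 3, Serpina3n itself, Gfap and Vim, the last with an adjusted p of 0.0992, against 0.214% of all genes with an adjusted p. Among the 4 most abundant besides Serpina3n, Gfap had a log2 fold change of 1.98 (SE 0.34), Vim, another intermediate filament, 1.24 (SE 0.32), the receptor gene S1pr3 0.40 (SE 0.59) and the ferroxidase gene Cp 0.39 (SE 0.45). In microglia 7 of the 13 were tested and 4 were called higher (against 2.13% of all genes), Gfap (2.78), Cd44 (2.38), Cxcl10 (1.66) and Vim (1.46). Gfap is also an astrocyte marker, at 6.28 ± 5.13 CPM in sham and 42.0 ± 35.2 CPM in FPI microglia (SD, n = 5).

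No serpin besides the members was called in either cell type by edgeR or DESeq2. None of the 17 other clade A serpins of the same chromosomal cluster, among them the Serpina1 genes for alpha-1-antitrypsin, had enough reads to be tested in either cell type. Of 21 further serpins, all of other clades except Serpina7, which was not tested, 10 were tested in astrocytes and 0 were called, with a median log2 fold change of 0.08 and 1 gene at an unadjusted p below 0.05. That gene, Serping1, the inhibitor of complement C1, was picked out after its value was seen, and it had 8.93 ± 5.94 CPM in sham and 21.2 ± 14.7 CPM in FPI (SD, n = 5, log2 fold change 1.26, edgeR adjusted p = 0.999). Serpine2, an inhibitor of thrombin and plasminogen activators and the most abundant serpin of the list, was at 315 ± 146 CPM in sham and 278 ± 93.98 CPM in FPI astrocytes (SD, n = 5). Serpinh1, a collagen chaperone, was at 157 ± 31.1 and 165 ± 80.7 CPM. In microglia 6 were tested and 0 were called, 1 having an unadjusted p below 0.05, with Serpine2 at 307 ± 17.97 CPM in sham and 369 ± 66.8 CPM in FPI (SD, n = 5).

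Among proteases that serpins inhibit, edgeR made 3 calls over both cell types. Of 27 proteases, 12 were tested in astrocytes and 1 was called (against 0.00728% of all genes), Ctss, encoding the lysosomal cysteine protease cathepsin S, with 1.17 ± 0.895 CPM in sham and 26.1 ± 13.9 CPM in FPI (SD, n = 5, log2 fold change 4.52, edgeR adjusted p = 0.0798). Ctss was at 4825 ± 525 CPM in sham and 6227 ± 1482 CPM in FPI microglia (SD, n = 5), and the summed microglia markers in astrocyte libraries were 104 to 180 CPM in sham and 128 to 257 CPM in FPI. All 7 tested microglia markers had a positive log2 fold change in astrocytes, with a median of 2.96. DESeq2 called 4 of the 10 on that list, C1qa (4.76), Itgam (3.71), Cx3cr1 (3.37) and Csf1r (2.96), against 0.214% of all genes. The part of microglial RNA in the Ctss reads of astrocytes was not tested. In microglia 10 proteases were tested and 2 were called (against 2.35% of all genes), Ctsb (cathepsin B, log2 fold change 0.89) and Ctsl (cathepsin L, 0.71). The enzymes classically inhibited by Serpina3n were hardly detected, with Gzmb (granzyme B) at 3 reads in FPI astrocytes and 0 in sham, and Elane (neutrophil elastase) at 2 reads in FPI microglia.

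No gene of the gp130 and STAT3 pathway was called by edgeR in either cell type. DESeq2 called 1, Socs3 in astrocytes (adjusted p = 0.0992), where it called 0.214% of all genes. In astrocytes 18 of 25 were tested and the median log2 fold change was 0.17. The abundant receptor genes Cntfr (-0.37, SE 0.35), Il6st, encoding gp130 itself (0.20, SE 0.15), and Lifr (-0.31, SE 0.23) and the kinase gene Jak1 (0.02, SE 0.17) had intervals that span 0. The 3 genes with an unadjusted p below 0.05, all higher in FPI (1.57% of all genes) and named here after their values were seen, were Socs3, a feedback inhibitor of the pathway (1.55, SE 0.40), the transcription factor gene Cebpd (0.93, SE 0.28) and A2m, an acute-phase protease inhibitor (1.08, SE 0.34). In microglia 17 were tested, with a median of 0.11. There Il6ra, encoding the receptor of interleukin 6, had 281 to 413 CPM in sham and 260 to 280 CPM in FPI. Every FPI library lay below every sham library, as for 154 of the 12143 genes tested. Il6ra was lower in FPI at an unadjusted p below 0.05 (-0.34, edgeR adjusted p = 0.207). Lifr, encoding the receptor of leukemia inhibitory factor, was lower at that level as well (-0.38, adjusted p = 0.143; 3.87% of all genes lower), and Bcl3, a regulator of NF-kB that was named after its value was seen, was higher (0.87, adjusted p = 0.243; 7.47% of all genes higher). Interferon response genes were read as well, since Oasl2 was among the nearest profiles. In astrocytes 26 were tested and edgeR called 0, while 20 had an unadjusted p below 0.05, all higher in FPI (against 1.57% of all genes), and the median was 1.07. DESeq2 called 6 of the 31 on the list in astrocytes, Oasl2, Usp18, Rtp4, Ifit1, Ifi27 and Ifit3, against 0.214% of all genes. In microglia 31 were tested and edgeR called 25, all higher in FPI (against 2.13% of all genes), with a median of 1.85.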

How the data were processed

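The authors made stranded total RNA libraries from sorted cells with a kit for picogram inputs, sequenced paired ends, and aligned with HISAT2 2.1.0 to mm10 (GRCm38.p6). featureCounts is named in the submitters' processing notes, with no settings. The deposited values are counts of reads per gene, whole numbers without normalization. Gene models were matched to GENCODE M21 (37607 of 39017 identifiers, 99.8% of counts).

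Astrocyte and microglia libraries were fitted separately with edgeR 4.0.16 under R 4.3.3, using filterByExpr by group, TMM scaling, the quasi-likelihood test and Benjamini-Hochberg adjustment; genes were called at an adjusted p below 0.1 and an absolute log2 fold change above 0.6. All 20 libraries were fitted together for contrasts between cell types, as if independent. Library depth, 5623349 to 13110857 counts, limits members at a few reads. The scripts were tested on simulated data. P-values measure the spread between libraries.

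Members, gene lists and tests were chosen with earlier results of these data known. Named genes were the 7 members, the called genes of each list or else its 4 most abundant tested genes, and the 5 nearest profiles. Alternatives were DESeq2 1.42.0, RLE factors, other count filters, robust estimation, blocks and batch terms, a joint fit, and leaving out libraries; leaving FPI astrocyte replicate 5 out of the exact test, or averaging it with replicate 2, was added after seeing the data. Transcripts and promoters were aligned in pairs with Biopython 1.88, and the coding sequences of the members together with MAFFT 7.526. FPI astrocyte replicates 2 and 5 share an animal number but their counts differed by as much as other pairs, and both were kept.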

Additional observations from a re-analysis of the deposited data

Results flagged for a closer look

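Each group of 5 libraries was searched for a library set apart from the rest, meaning a gap to its nearest neighbour above 0.71 of the whole range (Dixon's ratio). The search covered the members and, in astrocytes, the 5 genes nearest to Serpina3n. Of these 5, only Gfap and Oasl2 were searched in microglia. Of 21 groups 9 had such a library, and groups with no reads of a gene were left out. Normally distributed values would give about 1 in 20, a rate that need not hold for CPM near 0. A gene with reads in only 1 library of a group is flagged by construction. Serpina3n in FPI microglia replicate 2 was at 9.22 CPM with the next library at 1.87 CPM. Serpina3n in sham microglia replicate 4 was at 0.567 CPM, which is 5 reads. Serpina3m in sham microglia replicate 3 (0.783 CPM, 7 reads) and Serpina3g in sham microglia replicate 2 (0.146 CPM, 2 reads) were each the single library with reads of that gene. In astrocytes FPI replicate 5 stood apart for Tnr (125 CPM), Oasl2 (48.5 CPM) and Icam1 (11.8 CPM), and sham replicate 5 for Gfap (407 CPM) and Tnr (10.3 CPM). These genes were selected for their likeness to Serpina3n over the same libraries, so their flags are not independent of one another.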

How the results depend on the processing

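Serpina3n in astrocytes had a positive log2 fold change in all 19 alternatives, and leaving out single libraries gave 2.04 to 2.64, none called. It passed the threshold with DESeq2 (2.37), every gene of at least 1 count (2.33), the replicate block (2.45, adjusted p = 0.0131) and a term for replicates 4 and 5 (2.48, adjusted p = 0.00916). Genes called in astrocytes numbered 1, against 39 with DESeq2, 9 with every gene of at least 1 count, 11 with the replicate block, 6 with the term for replicates 4 and 5, 53 in one fit of 20 libraries, and 0 with a minimum of 10 counts throughout, robust estimation or FPI replicates 2 and 5 summed (0 to 3 without single libraries). Genes called in microglia numbered 285, 121 in one fit of 20 libraries, 255 with the replicate block, and 177 to 423 without single libraries. The difference between cell types for Serpina3n ran from -2.93 to -0.31 without single libraries and was -1.64 with the replicate block, never called. The genes called for it numbered 30, against 190 with DESeq2, 1 with at least 10 counts in every library, 69 and 8 without the astrocyte or microglia libraries of mice with both, and 21 to 48 without single libraries. Serpina3n stayed called between cell types in all 27 alternatives (6.04 to 6.89 without single libraries), where 9683 genes were called and 4515 with at least 10 counts in every library. At that filter Serpina3n was left out of fits with microglia. In microglia its CPM difference was 0.898 to 3.14 without single libraries (exact p 0.0159 to 0.0317). Its share of cluster reads there was 89.2% to 92.6% in FPI microglia, and in sham microglia 18.2% to 77.8%. Samples of one number deviated together in 4 of 5 astrocyte pairs (correlations -0.009 to 0.452) and not in microglia (-0.066 to 0.092), and, as this did not hold for every pair, numbers were not taken as pairs. The cause of these shifts was not tested. Depth limits members with under 20 reads, whose shares and differences rest on 1 or 2 libraries.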
